A study of Mus musculus with 4 samples.

Results

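The genes described here encode the receptors through which a liver cell senses foreign chemicals, oxysterols and steroid and thyroid hormones, together with Por, the reductase that feeds electrons to the microsomal cytochromes P450. They were taken by name from the array's annotation, as every probe set whose only gene symbol was Nr1i2, Nr1i3, Rxra, Nr1h3, Thrb, Esr1, Nr3c1 or Por. Of these 8 genes, 7 were represented, by 17 of the 45101 probe sets on the array. Por had 0 probe sets with that single symbol and was not analysed here.

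Regenerating livers of BALB/c nu/nu mice, a nude strain lacking mature T cells, were profiled on 4 single-colour arrays, 2 from the OGFRL1 group and 2 from the EGFP group. Mice of both groups had been injected 23 times with carbon tetrachloride (a hepatotoxin) at 0.25 ml/kg, and 1000000 human bone marrow mesenchymal stem cells were then placed in the spleen. The cells expressed OGFRL1 in one group and the fluorescent protein EGFP in the control group. Part of the liver was removed on day 21, and the regenerating remnant was sampled on day 8 after that surgery. Age, sex, the promoter behind either transgene, and whether each array came from 1 mouse or a pool are not given in the sources used here.

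As background, nuclear receptors are transcription factors that a small molecule switches on or off. Nr1i2 (the pregnane X receptor, PXR) and Nr1i3 (the constitutive androstane receptor, CAR) bind drugs, bile acids and steroids. Together with Rxra (the retinoid X receptor alpha, their shared partner) they turn on cytochromes P450, conjugating enzymes and transporters. Nr1h3 (the liver X receptor alpha, LXR) senses oxysterols, Thrb thyroid hormone, Esr1 oestrogen and Nr3c1 glucocorticoids. Nr1h3 and Thrb also pair with retinoid X receptors, whereas Esr1 and Nr3c1 bind DNA mainly as homodimers.

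Signals below are the deposited MAS5 intensities, in arbitrary units on a linear scale. Array medians were 11.6 to 12.3 in OGFRL1 livers and 12.2 to 12.5 in EGFP livers. Fold changes are OGFRL1 minus EGFP on the log2(signal + 3.51) scale, with the standard error (SE) of a limma fit over 11942 genes. In that fit 61 genes (0.511%) passed a Benjamini-Hochberg adjusted p of 0.05 and 1826 (15.3%) had an unadjusted p below 0.05. Both OGFRL1 arrays lay below both EGFP arrays for 20.5% of genes and above them for 27.0%. The median log2 fold change over all genes was 0.04. All 18 BioB, BioC, BioD and Cre spike-in control probe sets were lower on the OGFRL1 arrays (mean log2 fold change -0.35), and centring on them moved the median of all genes to 0.37. The number of genes past the threshold was 0 without OGFRL1 1, 2 without OGFRL1 2, 619 without EGFP 1 and 856 without EGFP 2.

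Of the 7 genes, 6 had a probe set bright enough to be tested, and 0 of the 6 passed the threshold in limma, with 0 at an unadjusted p below 0.05. Their log2 fold changes ran from -0.25 to 0.10, with a median of -0.12, and 54.4% of all genes tested lay within the largest of them in absolute size. As deposited, and for the brightest probe set of each gene, the 95% intervals of the 6 genes together spanned -0.64 to 0.54. That is a signal in OGFRL1 livers between 0.641 and 1.46 times that of EGFP livers. Some dimmer probe sets had wider intervals, such as -0.35 to 1.21 for a probe set of Nr3c1 and -0.82 to 0.18 for a probe set of Rxra. Spike-in centring moved the 6 log2 fold changes up, to between 0.10 and 0.44. Differences within these intervals could not be resolved with 2 arrays in each group. Separate mice are not stated in the labels, and the p-values therefore reflect only how much the arrays varied.

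Nr1i2, the broad sensor of drugs and steroids, was read by 2 probe sets. The brighter one had signals of 386 and 267 in OGFRL1 livers and 309 and 302 in EGFP livers. The OGFRL1 arrays lay on either side of the EGFP arrays, and the log2 fold change was 0.07 ± 0.20 (SE, limma adjusted p = 0.907). The second probe set gave 207 and 177 in OGFRL1 livers and 189.8 and 190.3 in EGFP livers (log2 fold change 0.01 ± 0.16). In both probe sets OGFRL1 1 was the highest array and OGFRL1 2 the lowest, so the sign of the brighter one depended on which was kept (0.33 without OGFRL1 2 and -0.19 without OGFRL1 1).

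Nr1i3, which in mouse liver is known for inducing Cyp2b10, was read by a single probe set. Its signals were 572 and 484 in OGFRL1 livers and 666 and 490.2 in EGFP livers. The groups overlapped, with EGFP 1 highest and OGFRL1 2 lowest. The log2 fold change was -0.12 ± 0.19 (limma adjusted p = 0.820, 95% interval -0.57 to 0.33), and it was 0.10 without EGFP 1 and 0.00 without OGFRL1 2.

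Rxra, the shared partner of the metabolic receptors, had 3 probe sets. The brightest had signals of 733 and 684 in OGFRL1 livers and 754 and 827 in EGFP livers, and a dimmer one had 64.5 and 88.3 in OGFRL1 livers and 100.6 and 90.4 in EGFP livers. In both, each OGFRL1 array was below each EGFP array, but by less than the test could separate. The log2 fold changes were -0.16 ± 0.13 (limma adjusted p = 0.642) for the brightest and -0.32 ± 0.21 for the dimmer. Leaving out 1 array at a time gave -0.22 to -0.09 for the brightest, and for the dimmer -0.11 without OGFRL1 1 and -0.54 without OGFRL1 2. The third probe set was at or below 1.23 on all 4 arrays and was not tested.

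Nr1h3, the oxysterol receptor that controls cholesterol export and lipogenesis, had signals of 258 and 298.4 in OGFRL1 livers and 363 and 298.8 in EGFP livers. The order was lower in OGFRL1 livers, yet OGFRL1 2 and EGFP 2 were nearly equal. The log2 fold change of -0.25 ± 0.16 (limma adjusted p = 0.547, 95% interval -0.64 to 0.15) was the largest in absolute size among the 6 genes. It was -0.11 without EGFP 1 and -0.39 without EGFP 2. Rxra and Nr1h3 were the 2 of 6 tested genes with groups that did not overlap, both lower, against the 20.5% of all genes that were ordered so.

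For these 2 genes the bases before the start of transcription are shown, as annotated by RefSeq on GRCm38.p6, because receptors of this family can bind near their own and each other's genes. Capitals mark the half-site AGGTCA or its complement TGACCT, which most of the receptors that pair with Rxra recognise, and AGAACA or its complement TGTTCT, the half-site of steroid receptors such as Nr3c1. The second start of Rxra (chr2:27709042-27709291, plus strand) held 2 matches, at 87 and 48 bases before the start. The window shown for Nr1h3 (chr2:91195117-91195366, minus strand) held 0 matches of either half-site. The other start of Rxra (chr2:27676951-27677200) and the other window of Nr1h3 (chr2:91195036-91195285) also held 0 and are not shown.
Rxra: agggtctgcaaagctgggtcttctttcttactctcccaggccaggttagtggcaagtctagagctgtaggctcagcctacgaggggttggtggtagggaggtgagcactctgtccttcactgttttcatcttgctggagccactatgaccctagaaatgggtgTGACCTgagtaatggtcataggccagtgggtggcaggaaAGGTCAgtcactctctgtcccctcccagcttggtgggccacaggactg
Nr1h3: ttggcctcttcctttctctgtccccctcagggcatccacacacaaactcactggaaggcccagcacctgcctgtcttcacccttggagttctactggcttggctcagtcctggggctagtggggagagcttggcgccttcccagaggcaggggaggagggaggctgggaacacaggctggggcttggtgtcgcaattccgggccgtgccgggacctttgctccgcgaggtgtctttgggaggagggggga

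Over all 32851 promoter windows of 250 bases in the RefSeq table, 14.0% held AGGTCA on either strand and 16.1% held AGAACA. Among 11 windows of 7 of the 8 genes, 2 held AGGTCA, the second start of Rxra and a start of Thrb at 184 bases before it. Of the 11, 1 held AGAACA, another start of Thrb. A match describes the letters and shows no binding.

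Thrb, the main thyroid hormone receptor of hepatocytes, had a single dim probe set that did not pass the filter on low signal. Its signals were 11.3 and 7.86 in OGFRL1 livers and 7.72 and 11.9 in EGFP livers. The groups overlapped, and the mean over the 4 arrays was below the filter of 11.6. Without the filter its log2 fold change was -0.02.

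Esr1, the oestrogen receptor alpha, had 3 probe sets that did not point the same way. The brightest had 275 and 348.0 in OGFRL1 livers and 323 and 351.9 in EGFP livers (log2 fold change -0.12 ± 0.17, limma adjusted p = 0.777). Another had 104 and 130 in OGFRL1 livers and 82.8 and 123 in EGFP livers (0.20 ± 0.24). Both overlapped between the groups, and the brightest was at 0.04 without OGFRL1 1. The third did not pass the filter, with 1.57 and 1.91 in OGFRL1 livers and 10.9 and 1.87 in EGFP livers.

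Nr3c1, the glucocorticoid receptor, was read by 6 probe sets, of which 5 were tested. The brightest had 434 and 421 in OGFRL1 livers and 341 and 469 in EGFP livers. The OGFRL1 arrays were close together and lay between the EGFP arrays, and the log2 fold change was 0.10 ± 0.18 (limma adjusted p = 0.850). It was -0.13 without EGFP 1 and 0.32 without EGFP 2. The EGFP arrays differed from each other in the same direction in all 6 probe sets, with EGFP 1 below EGFP 2.

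A dimmer probe set of Nr3c1 had 187 and 178 in OGFRL1 livers and 91.4 and 197 in EGFP livers (0.43 ± 0.33, limma adjusted p = 0.619 among probe sets). Its EGFP arrays differed by 1.08 on the log2 scale and its OGFRL1 arrays by 0.08. Without EGFP 2 its log2 fold change was 0.97 and without EGFP 1 it was -0.11, so its direction depends on which EGFP array is kept. After spike-in centring this probe set was at 0.77 (limma unadjusted p = 0.0085, adjusted p = 0.0734 among probe sets). The next brightest had 216 and 226 in OGFRL1 livers and 196.0 and 269 in EGFP livers (-0.05 ± 0.19), and the remaining 3 were at or below 21.1 on all arrays. With values as deposited, 0 of all 13 tested probe sets of the receptors passed in the limma fit of 20238 probe sets, where 0.336% did. In that fit 0 of the 13 had an unadjusted p below 0.05.

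**Figure D1:**
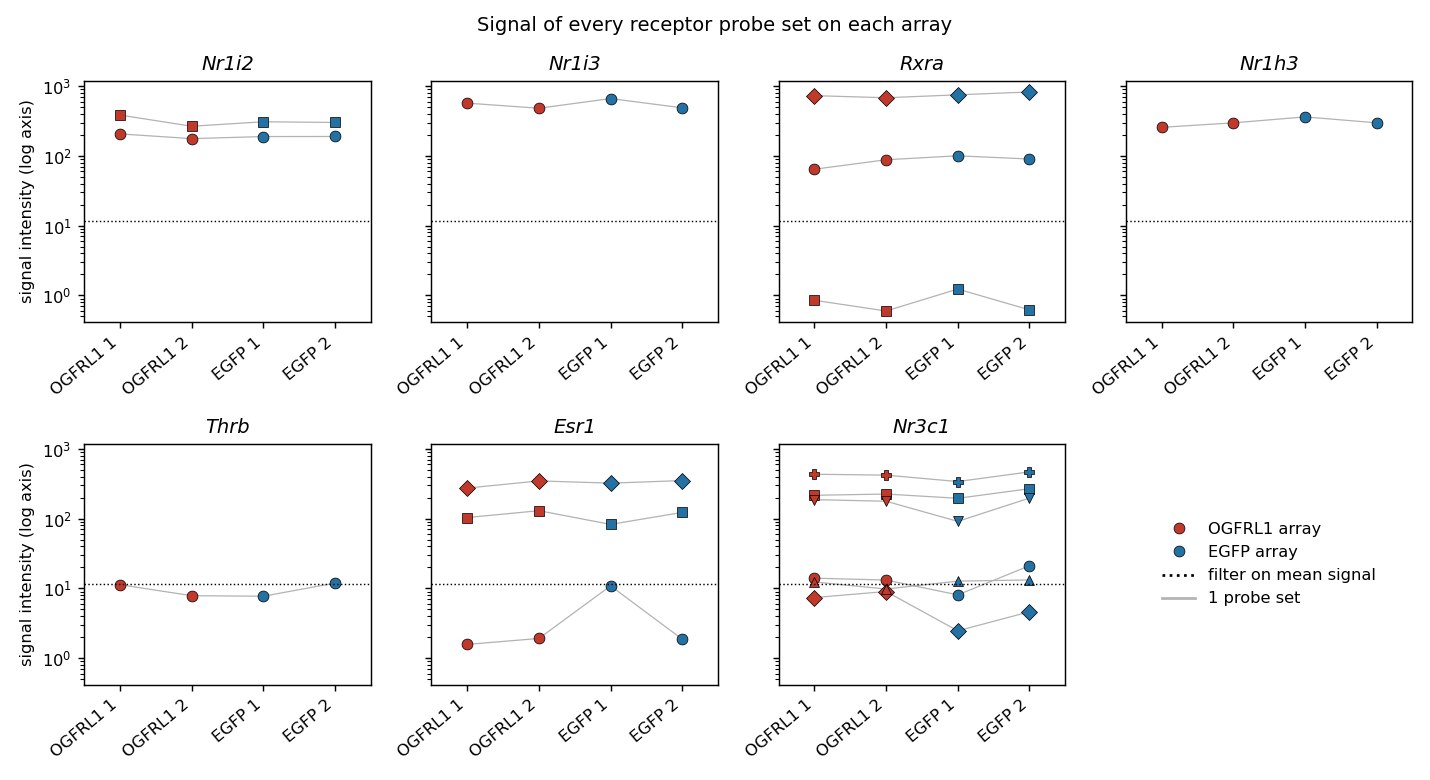
Signal intensity (log axis) of each probe set of the 7 receptor genes on OGFRL1 arrays (red) and EGFP arrays (blue). Each grey line joins 1 probe set over the 4 arrays, and the dotted line marks the filter on mean signal, 11.6. Most bright probe sets run nearly level, and EGFP 1 lies below EGFP 2 in all 6 probe sets of Nr3c1.

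**Figure D2:**
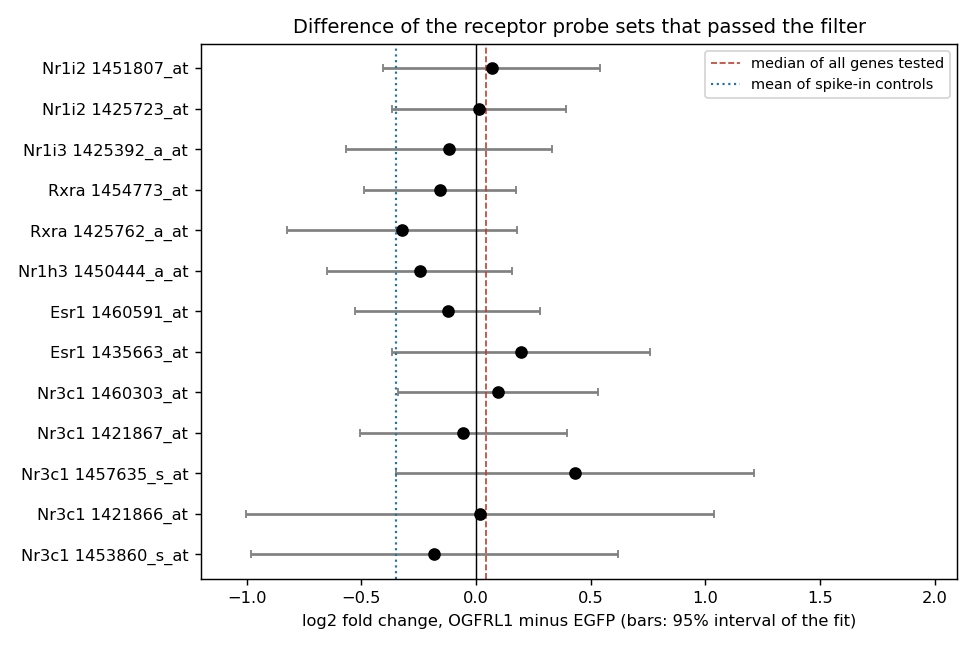
Log2 fold change (OGFRL1 minus EGFP) of the 13 receptor probe sets that passed the filter, with 95% intervals of the limma fit. The dashed line is the median of all genes (0.04) and the dotted line the mean of the spike-in controls (-0.35). Every interval includes 0.

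The direction of the small differences depended on the scaling. Rxra, Nr1h3, Esr1 and Nr1i3 were below 0 as deposited, after quantile normalization and after scaling to equal medians, and came out above 0 (0.10 to 0.23) when arrays were centred on the spike-in controls. Relative to the median of all genes, the median of the 6 receptors was -0.16 as deposited and -0.15 after spike-in centring.

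To see what lay around the receptors, 9 lists of related genes were counted: other nuclear receptors, coregulators and chaperones, textbook targets of each receptor, P450s and companion reductases of Por, and enzymes and carriers that set hormone levels. They held 189 distinct genes, of which 166 were on the array by name and 147 were tested. Of these, 1 passed the threshold, Sult1e1, an oestrogen sulfotransferase. At an unadjusted p below 0.05, 38 were lower and 10 higher in OGFRL1 livers, against 15.3% of all genes in either direction. The 35 list genes named below were picked in these same data, as those with the strongest differences in each list. Of them 1 passed as reported and 9 after spike-in centring, where 1430 of all genes passed. After quantile normalization, with no filter or with no intensity trend, 0 passed.

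**Figure D3:**
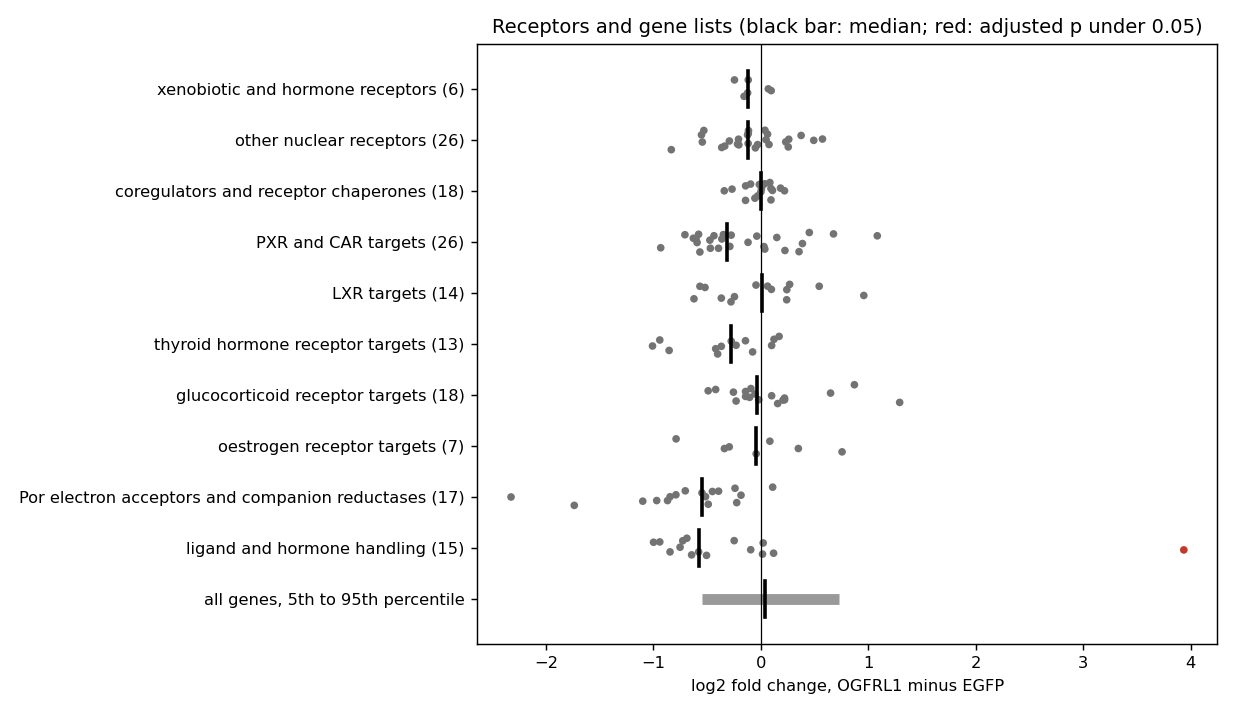
Log2 fold change (OGFRL1 minus EGFP) of each tested gene in the receptor set and the 9 lists, with the number tested in brackets. Black bars are medians, red marks a gene past the threshold, and the grey band spans the 5th to 95th percentile of all genes. Sult1e1 stands alone at 3.94. The list of Por electron acceptors and companion reductases has a median of -0.55 and that of hormone handling -0.58.

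Cell type markers were read beside these lists. The defining hepatocyte gene Alb, which encodes albumin, had 7041 and 7930 in OGFRL1 livers and 16107 and 9313 in EGFP livers. Of 10 hepatocyte markers 9 had a log2 fold change below 0, with 0 past the threshold in limma (7 lower and 1 higher at an unadjusted p below 0.05), and their summed signal was 57565 to 63191 in OGFRL1 livers and 75840 to 101599 in EGFP livers. Of the 10, 9 had a mean signal of at least 1000, and 69.7% of all genes that bright were below 0, as were 95.5% of those of at least 5000. Of these markers Hnf4a, Cyp2e1, Ttr and Tat are also in the lists. Summed signals of 9 cell cycle genes were 5297 to 6468 in OGFRL1 livers and 1954 to 2613 in EGFP livers, with 4 of the 9 past the threshold in limma. Those of 10 stellate cell and myofibroblast markers were 3769 to 4664 in OGFRL1 livers and 2310.3 to 2684 in EGFP livers. The sums of 10 macrophage markers overlapped, at 7566 to 12703 in OGFRL1 livers and 6045 to 14547 in EGFP livers. Those of 8 endothelial markers were 2118 to 2372 in OGFRL1 livers and 2391 to 2395 in EGFP livers. The 6 tested cholangiocyte and progenitor markers summed to 869 to 1085 in OGFRL1 livers and 326 to 457 in EGFP livers. That gap lay in Prom1 (720 and 510.1 in OGFRL1 livers, 223 and 108 in EGFP livers) and Cd24a (263 and 249 in OGFRL1 livers, 126 and 109.7 in EGFP livers), while Epcam (-0.21) and Sox9 (-0.15) were below 0. Of 5 T cell markers matched, 1 passed the filter, as did 3 of 6 B and NK cell markers. In bulk tissue fewer cells of a type and less RNA per cell cannot be told apart, and the part of cell composition in the list values was not tested.

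The rest of the nuclear receptor family gave 0 calls too. Of 42 listed, 26 were tested and 0 passed in limma (1 higher and 2 lower at an unadjusted p below 0.05), with a median of -0.12, which was 0.23 after spike-in centring and 0.03 without EGFP 2. Hnf4a, a central hepatocyte transcription factor, had 2191 and 2261 in OGFRL1 livers and 3602 and 2932 in EGFP livers (log2 fold change -0.55 ± 0.15, limma adjusted p = 0.171). Both OGFRL1 arrays were below both EGFP arrays, but the log2 fold change was -0.20 as an average over probe sets and -0.20 after spike-in centring. Rarb and Rarg, receptors for retinoic acid, had 0.57 ± 0.23 and -0.83 ± 0.33, but averaging the probe sets of Rarg gave 0.16. Esrra, a regulator of mitochondrial genes, had 0.37 ± 0.18.

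Coregulators and receptor chaperones had a median of 0.00, or 0.33 after spike-in centring and -0.10 without OGFRL1 2. Of 18 tested, 9 were above and 9 below 0, 0 passed in limma and 0 had an unadjusted p below 0.05. Fkbp4 and Fkbp5 are cochaperones that act in opposite ways on the glucocorticoid receptor. Fkbp4 had 274 and 299 in OGFRL1 livers and 387 and 341 in EGFP livers (log2 fold change -0.34 ± 0.15, but 0.002 after spike-in centring), and Fkbp5 had 476 and 440 in OGFRL1 livers and 396 and 389 in EGFP livers (0.22 ± 0.13). Neither passed (limma adjusted p = 0.340 and 0.496). As the mean over probe sets, Fkbp4 was at -0.02 and Fkbp5 at 0.07. Tbl1x, a corepressor subunit, had -0.27 ± 0.17, and the acetyltransferase Ep300 had 0.18 ± 0.18.

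Targets of PXR and CAR had a median of -0.32, with 17 of 26 tested genes below 0 and 0 past the threshold in limma (10 lower and 2 higher at an unadjusted p below 0.05). Groups did not overlap for 12 genes in the lower direction, against 20.5% of all genes, and for 4 in the higher. Aldh1a1, a retinaldehyde dehydrogenase, had 5232 and 5302 in OGFRL1 livers and 8387 and 7645 in EGFP livers (-0.60 ± 0.14, limma adjusted p = 0.116), and was at -0.29 after quantile normalization and -0.26 after spike-in centring. Ces2a, a carboxylesterase that hydrolyses drugs, had 1288 and 938 in OGFRL1 livers and 2613 and 1690 in EGFP livers (-0.93 ± 0.25), with -0.62 without EGFP 1. Cyp2c54, a P450 of the Cyp2c family, had -0.59 ± 0.16. Cyp3a44, a P450 of the Cyp3a family, was above 0, with 161 and 85.7 in OGFRL1 livers and 50.5 and 56.9 in EGFP livers (1.08 ± 0.30, limma adjusted p = 0.171), with 0.64 without OGFRL1 1. Genes of these families have close paralogs, so the assignment of their probes is uncertain.

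Among PXR and CAR targets the values differed with brightness, as in several other lists. The 14 targets with a mean signal of at least 1000 had a median of -0.46, against -0.16 for all 1112 genes that bright. Several of them, such as Aldh1a1 and Cyp3a11, were above 5000, where all 134 genes had a median of -0.43. The 12 dimmer targets had a median of 0.03, against 0.06 for all 10830 dimmer genes. The median of all PXR and CAR targets was -0.08 after quantile normalization and 0.02 after spike-in centring. It was -0.11 without EGFP 1 and -0.13 without OGFRL1 2. Bright and dim medians were -0.37 and 0.06 for LXR targets, -0.14 and 0.09 for glucocorticoid targets and -0.17 and 0.08 for oestrogen targets. In the lists of Por electron acceptors and of hormone handling the dim genes had the lower median.

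Targets of LXR were split evenly. Of 14 tested genes, which include Nr1h3 itself, 7 were above and 7 below 0, 0 passed in limma (2 higher and 2 lower at an unadjusted p below 0.05), and the median was 0.01, or 0.35 after spike-in centring and -0.07 to 0.08 with each array left out in turn. Abcg5, the sterol exporter subunit, had 536 and 540.5 in OGFRL1 livers and 352 and 386 in EGFP livers (0.54 ± 0.13, limma adjusted p = 0.137). Lpl, lipoprotein lipase, had 2148 and 1932 in OGFRL1 livers and 1350.2 and 812 in EGFP livers (0.96 ± 0.24). Apoe, an apolipoprotein, and Scd1, a fatty acid desaturase, had -0.57 ± 0.20 and -0.52 ± 0.20, and after quantile normalization they were at -0.04 and 0.03. Without EGFP 1 and without EGFP 2 in turn, Apoe was at -0.31 and -0.82 and Scd1 at -0.26 and -0.79, and Lpl at 1.32 and 0.59.

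Targets of the thyroid hormone receptor had a median of -0.28, with 10 of 13 below 0 and 0 past the threshold in limma (3 lower and 0 higher at an unadjusted p below 0.05). The median was 0.07 after spike-in centring, and -0.15 without EGFP 2. Thrsp, a lipogenic factor, had 3830.3 and 3930.2 in OGFRL1 livers and 7236 and 6807 in EGFP livers (-0.85 ± 0.13, limma adjusted p = 0.0554). Its log2 fold change was -0.60 after quantile normalization, -0.51 after spike-in centring and -0.64 as the mean over probe sets. Me1, the cytosolic malic enzyme, had 529 and 417 in OGFRL1 livers and 779 and 1156 in EGFP livers (-1.01 ± 0.22, limma adjusted p = 0.110). Dio1, the deiodinase that activates thyroid hormone, had 158 and 212 in OGFRL1 livers and 229 and 548 in EGFP livers (-0.94 ± 0.39). Dio1 rests largely on EGFP 2: without that array its log2 fold change was -0.32. Klf9, which is a target of both thyroid hormone and glucocorticoid, had -0.42 ± 0.21, with -0.69 without EGFP 1 and -0.15 without EGFP 2.

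Targets of the glucocorticoid receptor were mixed. Of 18 tested genes 8 were above and 10 below 0, 0 passed in limma (2 higher and 1 lower at an unadjusted p below 0.05), and the median was -0.04, or 0.14 after quantile normalization, 0.30 after spike-in centring and 0.01 without EGFP 1. Sgk1, a kinase of ion transport, had 843 and 693 in OGFRL1 livers and 462 and 375 in EGFP livers (0.87 ± 0.17, limma adjusted p = 0.0889). Igfbp1, a secreted binding protein of insulin-like growth factors, had 1370 and 1516 in OGFRL1 livers and 951 and 361 in EGFP livers (1.29 ± 0.41), with 1.99 without EGFP 1 and 0.60 without EGFP 2. Tdo2, the tryptophan-degrading enzyme, had 4664 and 5037 in OGFRL1 livers and 6427 and 7221 in EGFP livers (-0.49 ± 0.14), and was at -0.21 after quantile normalization and -0.14 after spike-in centring.

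Targets linked to the oestrogen receptor were few. Of 7 tested genes 3 were above and 4 below 0, 0 passed in limma (2 higher and 1 lower at an unadjusted p below 0.05), and the median was -0.04, or 0.30 after spike-in centring, 0.17 without EGFP 1 and -0.26 without EGFP 2. Ccnd1, the G1 cyclin, had 1894 and 1713 in OGFRL1 livers and 1407 and 1421 in EGFP livers (0.35 ± 0.13, limma adjusted p = 0.277). Tff1, a secreted trefoil peptide, was dim, with 37.3 and 53.8 in OGFRL1 livers and 79.7 and 80.5 in EGFP livers (-0.79 ± 0.23). Lepr, the leptin receptor, was dimmer, with 29.3 and 28.0 in OGFRL1 livers and 17.2 and 14.0 in EGFP livers (0.76 ± 0.28). As the mean over probe sets Lepr was at 0.26. Igfbp4, a growth factor binding protein, had -0.34 ± 0.15 and was at 0.01 after spike-in centring.

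Enzymes that draw electrons from Por were listed with companion reductases, cytochromes b5 and the mitochondrial electron carriers Fdx1 and Fdxr. Of 17 tested genes 0 passed the threshold in limma, with 16 of the 17 below 0 (12 lower and 0 higher at an unadjusted p below 0.05). For 13 of them both OGFRL1 arrays were below both EGFP arrays, against 20.5% of all genes. The median was -0.55, or -0.35 after quantile normalization and -0.20 after spike-in centring. Sqle, squalene epoxidase of cholesterol synthesis, had 403 and 469 in OGFRL1 livers and 769 and 951 in EGFP livers (-0.97 ± 0.16, limma adjusted p = 0.0671). Cyb5b, the cytochrome b5 of the outer mitochondrial membrane, had 1061 and 925 in OGFRL1 livers and 1537 and 1698 in EGFP livers (-0.70 ± 0.14). Cyp2e1, the P450 that activates carbon tetrachloride, had 5802 and 6137 in OGFRL1 livers and 11181 and 9540.1 in EGFP livers (-0.79 ± 0.15), and was at -0.40 after quantile normalization and -0.44 after spike-in centring. Cyp7b1, an oxysterol hydroxylase, had 206 and 329 in OGFRL1 livers and 623 and 1232 in EGFP livers (-1.74 ± 0.35, limma adjusted p = 0.0963). It passed with the replicate number as a block (limma adjusted p = 0.019). It also passed after spike-in centring (limma adjusted p = 5.3e-05), with a log2 fold change of -1.39. That setting called 1430 of all genes. Cyp7b1 did not pass after quantile normalization, with no filter, with no intensity trend or as the mean over probe sets (-1.26). The 8 dimmer genes of this list had a median of -0.92 and the 9 with a mean signal of at least 1000 a median of -0.52.

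Among enzymes and carriers that set the supply of hormones and ligands, Sult1e1 rose, and 11 of the 15 genes tested were below 0. Sult1e1, which inactivates oestrogens by adding sulphate, had 1304 and 875 in OGFRL1 livers and 104 and 42.1 in EGFP livers (3.94 ± 0.40, limma adjusted p = 0.0405). Both OGFRL1 arrays were far above both EGFP arrays. The gene passed in 9 of the 15 other settings tried and did not in 6, among them leaving out OGFRL1 1 (adjusted p = 0.21) or OGFRL1 2 (adjusted p = 0.121), quantile normalization (adjusted p = 0.0547) and a fit without an intensity trend (adjusted p = 0.150), while its log2 fold change stayed between 3.32 and 4.55. The window before its start (chr5:87591612-87591861, minus strand, GRCm38.p6, RefSeq) held 1 AGGTCA half-site, on the opposite strand 113 bases before the start and in capitals here.
Sult1e1: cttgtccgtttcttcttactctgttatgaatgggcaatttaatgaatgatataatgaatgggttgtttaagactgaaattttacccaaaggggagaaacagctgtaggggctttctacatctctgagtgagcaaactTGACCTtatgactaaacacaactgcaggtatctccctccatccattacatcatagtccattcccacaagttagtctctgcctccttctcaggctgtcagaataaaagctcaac

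The 15 tested genes of hormone handling had a median of -0.58, with 8 lower and 1 higher at an unadjusted p below 0.05. The median was -0.29 after quantile normalization, -0.23 after spike-in centring and -0.32 without EGFP 2. Serpina6, which encodes the corticosteroid carrier of plasma, had 2078 and 1850.1 in OGFRL1 livers and 3662 and 4205 in EGFP livers (-0.999 ± 0.146, limma adjusted p = 0.0523). Hsd11b1, the enzyme that regenerates active glucocorticoid inside the cell, had 2705 and 2935 in OGFRL1 livers and 4875 and 4239 in EGFP livers (-0.69 ± 0.14, limma adjusted p = 0.1001). Slc16a10, an aromatic amino acid carrier that also moves thyroid hormone, had 127 and 157 in OGFRL1 livers and 266 and 247 in EGFP livers (-0.85 ± 0.17).

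**Figure D4:**
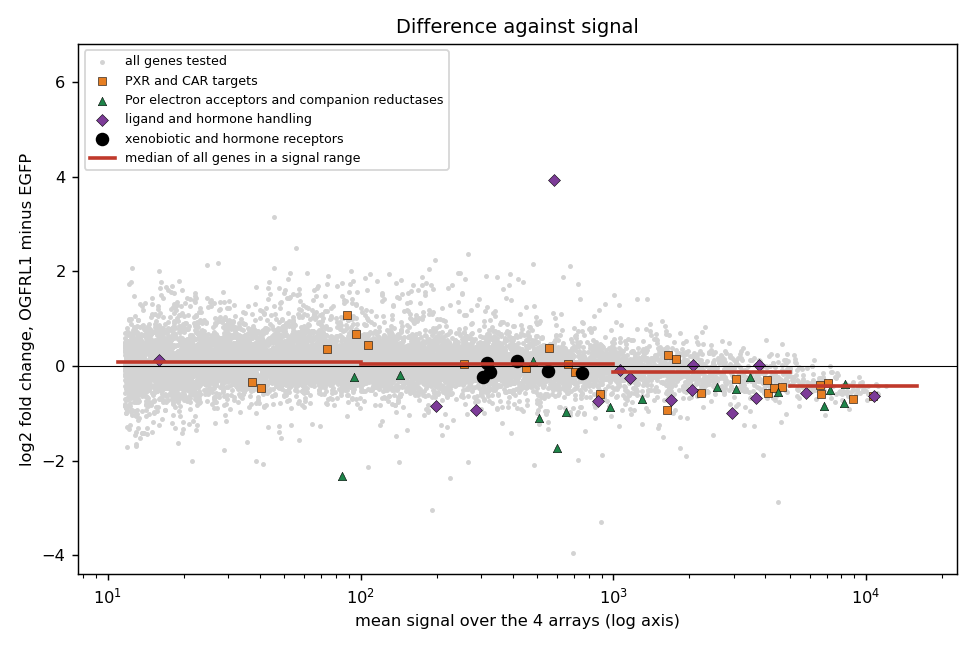
Log2 fold change (OGFRL1 minus EGFP) against mean signal over the 4 arrays (log axis), with all genes in grey. PXR and CAR targets are orange squares, Por electron acceptors and companion reductases green triangles, and hormone handling genes purple diamonds. Red bars mark the median of all genes in 4 signal ranges. The receptors (black) lie near 0, and the red bars step down to -0.43 for the 134 genes with a signal of at least 5000.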

How the data were processed

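Per the submitters' processing notes, the deposited values are MAS5 signal intensities, 1 per probe set and array, on a linear scale. The MAS5 version and detection calls are not given in the sources used here. Per the labels, each array took 100 ng of total RNA as input for biotinylated cRNA. The mean of each array without the lowest and highest 2% of probe sets was 100.0, as after scaling to a common target, which leaves the spread of bright signals free to differ.

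The platform annotation gave 1 symbol to 34945 probe sets, several to 932 and none to 9160, beside 64 controls. A gene was represented by its single-symbol probe set with the highest mean, and dropped where this was under 11.6 (the probe-set median). Values were analysed as log2(signal + 3.51), the 25th percentile, which understates changes of dim genes. The 4 arrays were fitted in R 4.3.3 with limma 3.58.1 (lmFit and trended eBayes, 2-sided), with Benjamini-Hochberg adjustment over all genes, 2 residual and 4.48 prior degrees of freedom. A second limma fit took all 20238 named probe sets above the filter. The scripts were tested on simulated data. With 2 arrays in each group an exact permutation test cannot go below p = 0.333 and was not used. The number of arrays limits the precision.

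Every receptor is named. Of each list up to 4 tested genes are named, taking calls first and the rest by absolute moderated t. The members and lists were chosen with earlier results of these data known. The mouse probe sets do not check the transgenes. The labels do not say that a replicate number marks a shared animal or day, so the numbers were not taken as pairs. Same-numbered arrays deviated from their group means with a correlation of -0.28. Alternatives covered scaling, pseudocount, filter, choice of probe set, trend, replicate block and leaving out each array.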

Additional observations from a re-analysis of the deposited data

How the results depend on the processing

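The number of genes past the threshold, 61 as reported, was 4 after quantile normalization, 1430 after centring on spike-in controls, 94 with 4 times the pseudocount, 2 with a stricter filter, 13 with the mean over probe sets, and 0 with no filter (2179 at an unadjusted p below 0.05 in limma) or no intensity trend (1654 unadjusted). Leaving out 1 array at a time gave 0 to 856, with the lone array assumed to vary like the other group. The share of higher calls, 70.5% as reported, was 96.1% after spike-in centring and 25% after quantile normalization. The replicate block gave 59 calls and a crossed replicate block, chosen after seeing the data, 934. Of the 6 receptors 0 passed under any of the 15 alternatives, the replicate block included, and 1, Nr1h3 without EGFP 2, had an unadjusted p below 0.05 (adjusted p = 0.210 in limma). Of the 35 named list genes, 1 passed as reported and 2 with the replicate block (Cyp7b1 added, adjusted p = 0.019 in limma). There were 9 after spike-in centring and 22 with the crossed block, and 0 after quantile normalization, with no filter or with no intensity trend. Of the receptor probe sets 0 to 1 passed when an array was left out. Spike-in centring turned Nr1i3 to 0.23, Rxra to 0.19, Nr1h3 to 0.10, Esr1 to 0.22, Fkbp4 to 0.0021, Igfbp4 to 0.0069 and Tbl1x to 0.075. Rarg was 0.16 as the mean over probe sets and Scd1 0.030 after quantile normalization. Leaving out arrays gave ranges of -0.19 to 0.33 for Nr1i2, -0.34 to 0.10 for Nr1i3, -0.29 to 0.045 for Esr1 and -0.13 to 0.32 for Nr3c1. Beyond what each alternative changes by construction, the cause of these shifts was not tested.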

Other observations

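Several genes of the lists differed by at least 1 on the log2 scale between the 2 EGFP arrays. They were chosen after their values were seen. Serpina7, the thyroxine carrier of plasma, had 723 and 390 in OGFRL1 livers and 411 and 1953 in EGFP livers, a 4.75-fold gap within the EGFP group. The metallothionein Mt2 had 2462 and 3478 in OGFRL1 livers and 5249 and 1313 in EGFP livers, and Mt1 had 3752 and 5327 in OGFRL1 livers and 6327 and 2326 in EGFP livers. Cyp7a1, the rate-limiting enzyme of bile acid synthesis, had 1079 and 985 in OGFRL1 livers and 887 and 2000.0 in EGFP livers. Ppara, the fatty acid receptor, had 294 and 285 in OGFRL1 livers and 299.6 and 606 in EGFP livers. Among 121 receptors and list genes with a mean signal of at least 100, the replicate arrays differed by a median of 0.17 on the log2 scale in the OGFRL1 group and 0.29 in the EGFP group. Over all 11942 genes tested these medians were 0.17 and 0.25, so the wider EGFP gap was not particular to the lists. Gaps of at least 1 on the log2 scale were found for 1 gene in the OGFRL1 group and 11 in the EGFP group. The share of all genes with such gaps was not counted.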
